A study of Mus musculus with 32 samples.

Results

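The cytosolic ribosomal proteins are the protein components of the ribosome that translates nuclear messages in the cytoplasm. Here they are 66 genes of the 16593 gene symbols on the array, read by 84 of its 25697 probes, and were taken by name: symbols that begin with Rpl or Rps and a digit, together with Rpsa, Rplp0, Rplp1 and Rplp2, but without the Rps6k kinases and without symbols marked as pseudogenes. By role, 43 probes belong to 32 large-subunit genes, 28 to 23 small-subunit genes, 4 to 3 genes of the stalk and 7 to 6 paralogs with their own symbol (Rpl3l, Rpl7l1, Rpl22l1, Rpl36al, Rpl39l and Rps27l). The last 2, Rps19bp1 and Rps23rg1, share only the name: Rps19bp1 encodes a protein that binds Rps19, and neither is a ribosomal protein. Rpl7, Rpl11 and Rps27a have no probe under those symbols.

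The arrays come from female C57BL/6J mice aged 23 months that received intraperitoneal injections of saline for 3 days or of AICAR, 500 mg/kg/day, over 3, 7 or 14 days, and all tissue was collected 33 days after dosing ended. AICAR is a nucleoside that cells phosphorylate to an AMP analogue, which activates the energy-sensing kinase AMPK. Gastrocnemius, a calf muscle, and hippocampus were each profiled on 16 Illumina bead arrays, 4 for each of the 4 treatments, so that every group has n = 4. The study's title asks about cognition and motor coordination; the comparisons below ask whether ribosomal protein messages differed from saline a month after each course, whether they differed between courses, and whether the 2 tissues differed. No untreated mice are among the samples, and saline was given for 3 days, so that AICAR for 7 or 14 days and a longer run of injections cannot be told apart. The labels do not say whether each array is a separate mouse, so the p-values measure the spread between these samples.

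A ribosome holds close to equal amounts of nearly all its proteins, and a protein made in excess of its partners is degraded. The messages of almost all vertebrate ribosomal proteins begin with a run of pyrimidines (C or T), the terminal oligopyrimidine or TOP motif, through which the kinase complex mTORC1 controls their translation. AMPK restrains mTORC1. Ribosomal protein genes have also left many processed copies in mammalian genomes, and a probe can pick up messages of a near-identical copy.

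The start sites of 10 of these genes are printed because the genes carry the main differences below and because they show how variable the pyrimidine run is at the annotated starts. Each line gives 15 bases before the start that RefSeq annotates, the start itself and 14 bases after it, 5′ to 3′ on the gene's strand, from the mouse assembly GRCm38.p6. Capitals mark the unbroken run of C and T that covers the start, and a line with no capitals starts on a purine. Where RefSeq lists several starts, the one with the longest run is shown, or the first where none has a run.
Rps21 (chr2:180257364-180257393, + strand): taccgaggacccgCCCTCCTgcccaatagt
Rps10 (chr17:27635230-27635259, - strand): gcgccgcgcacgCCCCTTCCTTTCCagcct
Rps9 (chr7:3704026-3704055, + strand): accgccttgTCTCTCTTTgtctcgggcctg
Rps3a1 (chr3:86142654-86142683, - strand): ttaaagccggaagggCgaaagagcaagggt
Rpl35a (chr16:33056467-33056496, + strand): gcggggcttgCCTTCCTCTTTCCgccatct
Rpl7a (chr2:26910792-26910821, + strand): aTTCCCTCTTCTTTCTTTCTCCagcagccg
Rpl5 (chr5:107900513-107900542, + strand): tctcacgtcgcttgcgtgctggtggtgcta
Rpl36a (chrX:134585639-134585668, + strand): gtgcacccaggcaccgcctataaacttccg
Rpl22l1 (chr3:28805493-28805522, + strand): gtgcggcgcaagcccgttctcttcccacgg
Rpl3l (chr17:24727811-24727840, + strand): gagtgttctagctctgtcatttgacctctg

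RefSeq promoter windows run from 250 bases before to 50 after a start. Those on chromosome 18, and those of the 2 genes that share only the name, were left out. For 55 of the 66 genes 66 windows were used. A run of at least 8 C or T over the start was found in 22.7% of these windows, against 3.9% of the 32851 mouse promoter windows outside chromosome 18. CCGGAAG, the core bound by ETS-family factors, was in 34.8% against 8.9% when both strands were searched. AAGATGGC, the core of the YY1 motif, was in 12.1% against 2.7%, GGGCGG, the GC box, in 62.1% against 35.7%, and TATAAA in 9.1% against 13.6%. No searched motif contains another. The matches are descriptions of sequence, and no binding was measured.

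A probe counted as detected where its signal exceeded the array's negative controls with p below 0.05, and it was tested in a tissue if 4 or more of that tissue's 16 arrays detected it. That left 71 ribosomal protein probes for 59 genes in muscle and 69 probes for 58 genes in hippocampus, with 69 probes in common. Of the 13 probes tested in neither tissue, Rpl14, Rpl6, Rplp2, Rps23, Rpl17, Rpl39l and Rps23rg1 leave their genes without any value. Signals were bright: 46 of the 71 probes in muscle and 45 of the 69 in hippocampus lay in the brightest 10% of tested probes. Values below are log2 intensities after background correction and quantile normalization within each tissue, differences are on that log2 scale with the standard error (SE) of limma's moderated test, and a probe is called where its p, adjusted by Benjamini and Hochberg over all probes of the comparison, is below 0.05.

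In each tissue a first principal component, with 44.9% of the variance in muscle and 36% in hippocampus, put all saline and 3-day arrays on one side and all 7- and 14-day arrays on the other. The median signal of undetected probes followed the same division. In muscle it averaged 129 on the saline arrays, 119 after 3 days, 164 after 7 days and 147.4 after 14 days, and in hippocampus 122.4 on the saline arrays, 117.6 after 3 days, 158.7 after 7 days and 150 after 14 days. Sample numbers form 4 runs of 8 arrays, each run a single treatment in both tissues. The labels do not say what the numbers stand for, and any batch that follows them cannot be told apart from treatment. The muscle genes Ckm, Tnnt3, Myh1 and Myh4 were not detected on any hippocampal array, though Acta1 was on 16 and Atp2a1 on 7. The astrocyte gene Gfap and the oligodendrocyte gene Mog were detected on no muscle array, though Aqp4 and probes of Mbp and Camk2a were on all 16, and the neuronal Snap25 probe was undetected in both tissues. In hippocampus the summed level of 4 astrocyte markers, all detected, ran from 11790 to 12520 in saline, 11610 to 12640 at 3 days, 13420 to 14110 at 7 days and 12710 to 13540 at 14 days, with 2 of the 4 called higher at 7 and at 14 days. That of 5 choroid plexus markers, all detected, ran from 2773 to 32930 in saline, 5459 to 41200 at 3 days, 4271 to 39720 at 7 days and 32650 to 41550 at 14 days, with 1 of 5 called higher at 7 and at 14 days. In muscle the summed level of 3 fibroblast markers, all detected, ran from 564.9 to 767.4 in saline, 673.2 to 1241 at 3 days, 731.1 to 1744 at 7 days and 592.5 to 936.5 at 14 days, with 2 of 3 called higher at 7 and at 14 days. Among the other lists, 2 of 4 neuronal markers in hippocampus were called lower at 7 days and the 1 Schwann cell marker tested was called higher at 7 and at 14 days, while in muscle 1 of 2 endothelial markers was lower at both times, 1 of 3 red blood cell markers was higher at 7 days, where their median difference was 2.1, and 1 of 3 microglial markers was lower at 7 days. Of 4 microglial markers in hippocampus 1 was higher and 1 lower at both times, and of 7 skeletal muscle markers in muscle 2 were higher at both times. The part of these cells in the results below was not tested. In tissue RNA, fewer cells of a type and less message per cell cannot be told apart.

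After 3 days of AICAR no ribosomal protein probe passed in either tissue. By limma 0 of 71 were called in muscle and 0 of 69 in hippocampus, with 4 and 5 at an unadjusted p below 0.05. Among all probes of these comparisons 0% were called as well. The median difference of the ribosomal protein probes was 0.01 in muscle and 0.03 in hippocampus. In hippocampus the smallest p belonged to Rpl7a, a large-subunit protein, at 0.32 ± 0.09 (adjusted p = 0.556), and to Rps3a1, the mouse form of the small-subunit protein Rps3a, at 0.38 ± 0.13 (adjusted p = 0.699). In muscle it belonged to Rpl7l1, a paralog of Rpl7, at 0.28 ± 0.09 (adjusted p = 0.284) and to Rpl4 at -0.24 ± 0.08 (adjusted p = 0.313).

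In hippocampus many ribosomal protein messages stood above saline after the longer courses. After 14 days 26 of the 69 probes were higher and 6 were lower, where 13.7% of all tested probes were called higher and 15.9% lower. After 7 days 24 were higher and 4 lower, against 13.1% and 14%. The members' median difference was 0.12 at 14 days and 0.09 at 7 days, beside -0.04 and -0.03 over all probes. In the brightest 10% of all probes, where most of these probes lie, 17.7% were called higher and 20.7% lower at 14 days, and 16% and 16.5% at 7 days. The rises were spread over both subunits: 11 of 26 small-subunit and 14 of 35 large-subunit probes were higher at 14 days, with 1 of 5 paralog probes and neither of the 2 stalk probes. The 4 arrays of 14 days did not overlap those of saline for 35 of the 69 probes, and those of 7 days for 34, beside 31.8% and 30.3% of all probes. In the authors' series values, another scaling of the same arrays, 19 members were higher and 6 lower at 14 days, beside 15% and 12% of all probes, and 17 higher and 9 lower at 7 days, beside 15.7% and 10.8%. The members' median there, in units of the array SD, was only 0.05 at 14 days and 0.003 at 7 days. Over all probes it was -0.003 and -0.0005, so the shift of the median depended on the scaling.

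**Figure D1:**
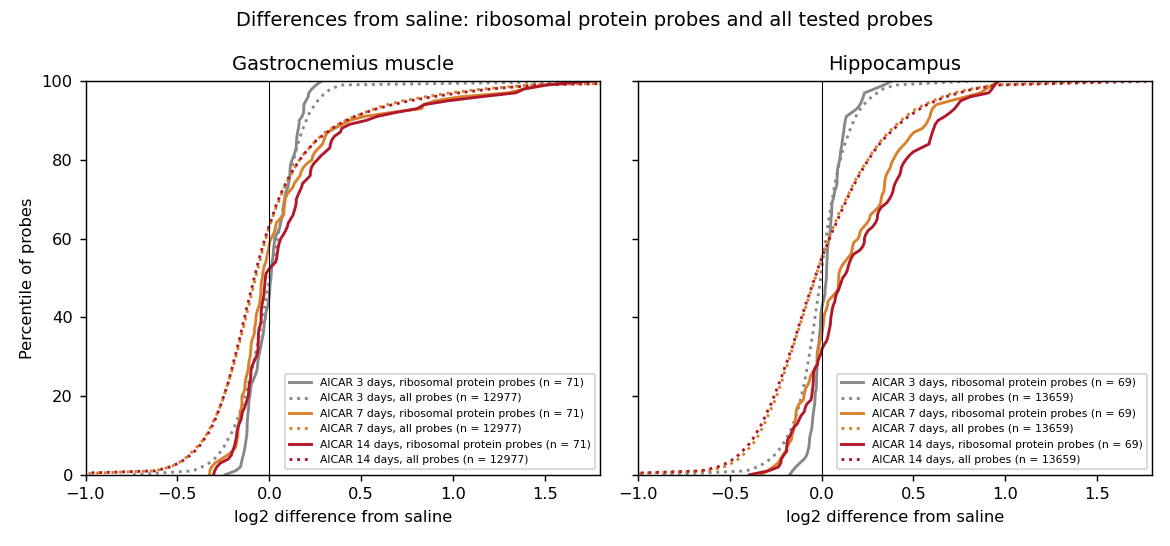
Percentile of probes (vertical) against the log2 difference from saline (horizontal) for ribosomal protein probes (solid) and all tested probes (dotted) after 3, 7 and 14 days of AICAR, in muscle (left) and hippocampus (right). At 7 and 14 days the solid hippocampal curves lie to the right of the dotted ones through most of their length (medians 0.09 and 0.12 against -0.03 and -0.04), while in muscle a short upper tail stands apart, and at 3 days the curves run close together.

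Rps21, a small-subunit protein that sits on the solvent side of the ribosome, had the largest rise at 14 days. Its probe read 12.40, 12.54, 12.53 and 12.68 on the saline arrays, 12.61, 12.46, 12.72 and 12.56 after 3 days, 13.38, 13.51, 13.39 and 13.51 after 7 days and 13.56, 13.47, 13.48 and 13.47 after 14 days. All 8 arrays of the longer courses were above all 8 of saline and 3 days. The difference from saline was 0.96 ± 0.07 at 14 days (adjusted p = 5.35e-06), a 1.94-fold level, and 0.91 at 7 days (adjusted p = 8.75e-06).

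Rpl36a, a large-subunit protein near the exit site for transfer RNA, behaved in the same way. It had 10.44, 10.48, 10.63 and 10.47 in saline, 10.53, 10.65, 10.60 and 10.43 at 3 days, 11.41, 11.58, 11.54 and 11.38 at 7 days and 11.38, 11.58, 11.38 and 11.41 at 14 days. The groups of 7 and 14 days again lay wholly above the others, by 0.97 at 7 days (adjusted p = 8.75e-06) and 0.93 ± 0.08 at 14 days (adjusted p = 5.89e-06). Its paralog Rpl36al, which encodes a nearly identical protein, was 0.12 ± 0.07 above saline at 14 days and did not pass (adjusted p = 0.227).

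Rpl5 binds the smallest ribosomal RNA together with Rpl11, and the free complex restrains Mdm2, the ligase that degrades p53. Its probe read 11.71, 11.40, 11.73 and 11.39 in saline, 11.70, 11.60, 11.83 and 11.45 at 3 days, 12.43, 12.41, 12.41 and 12.46 at 7 days and 12.47, 12.41, 12.39 and 12.63 at 14 days. Every array of 7 and 14 days was above every array of saline and 3 days, and the difference from saline was 0.92 ± 0.10 at 14 days (adjusted p = 2.02e-05) and 0.87 at 7 days (adjusted p = 3.33e-05).

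Rps10 and Rps3a1 followed. Rps10, a protein of the small subunit's head whose loss in humans causes Diamond-Blackfan anaemia, had 10.998, 11.003, 10.965 and 10.870 in saline, 10.87, 10.74, 11.15 and 10.97 at 3 days, 11.53, 11.61, 11.46 and 11.62 at 7 days and 11.60, 11.72, 11.59 and 11.80 at 14 days. Its longer courses lay wholly above the other arrays, and it rose by 0.72 ± 0.09 at 14 days (adjusted p = 4.41e-05) and 0.60 at 7 days (adjusted p = 0.000212). Rps3a1 was dimmer, with 8.51, 8.21, 7.91 and 8.17 in saline, 8.51, 8.79, 8.78 and 8.27 at 3 days, 8.99, 8.76, 9.04 and 9.03 at 7 days and 9.02, 9.04, 9.05 and 8.77 at 14 days. Its groups of 7 and 14 days did not overlap saline but did overlap the 3-day arrays, and it rose by 0.77 ± 0.13 at 14 days (adjusted p = 0.000714) and 0.75 at 7 days (adjusted p = 0.000941).

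The paralog Rpl7l1, which works in the assembly of the large subunit, has 2 probes that differed. The probe ILMN_2661407 was detected on no saline and no 3-day array. It was detected on 2 of 4 arrays at 7 days and on all 4 at 14 days. At 14 days it was at least 1.07-fold higher than saline (adjusted p = 0.00123). It met the detection filter only through the longer courses, so this p-value does not support the rise. The hippocampal counts of higher probes include it. The brighter probe ILMN_1249606 was detected everywhere and stood at 0.04 ± 0.07 at 14 days (adjusted p = 0.743). Bounds given as "at least" set the mean of the brighter group against the lowest signal that counts as detected on the dimmer arrays.

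The other hippocampal rises were smaller and shared by many members. At 14 days Rpl37a stood at 0.68, Rps9 at 0.62 and 0.28 on its 2 probes, Rpl35a at 0.61, Rpl34 at 0.60, Rps25 at 0.59, Rpl39 at 0.58, Rpl12 at 0.51 and Rpl24 at 0.47. Rpl13a, Rps27, Rps16, Rpl28, Rps7, Rpl7a, Rpl23 (2 of 3 probes), Rps12, Rps14 and Rpl31 (1 of 2 probes) lay between 0.45 and 0.30. Rpl35a, a large-subunit protein, and Rps27, a zinc-binding protein of the small subunit, are likewise Diamond-Blackfan anaemia genes in humans. The Rps27 call did not hold in the authors' series values at 7 days (adjusted p = 0.522) or 14 days (adjusted p = 0.0928).

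**Figure D2:**
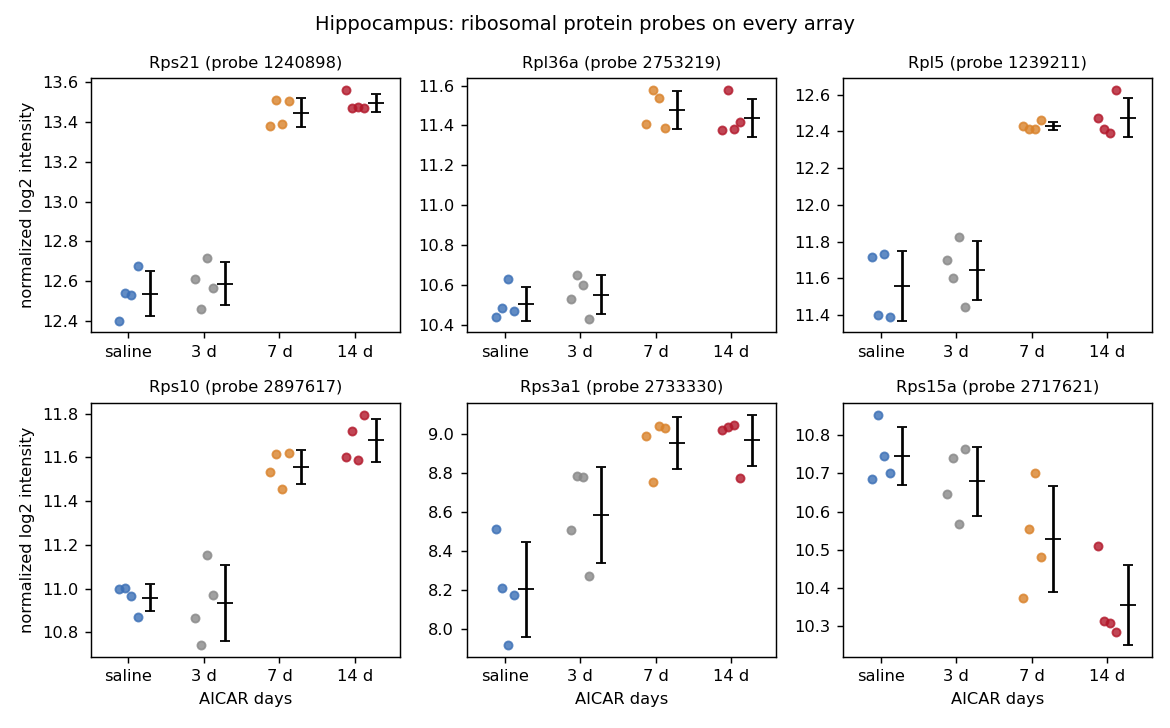
Normalized log2 intensity (vertical) of 6 ribosomal protein probes on every hippocampal array, by treatment (saline, then 3, 7 and 14 days of AICAR). Points are arrays, and dashes with bars are the mean and SD of 4 arrays. Rps21, Rpl36a, Rpl5 and Rps10 at 7 and 14 days sit above all saline and 3-day arrays, Rps3a1 at 3 days lies between, and Rps15a is lower at 14 days.

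The falls in hippocampus were small, and none of those named here passed with median scaling. Rps15a, a small-subunit protein, fell by 0.39 at 14 days (SE 0.08, adjusted p = 0.00275), with 10.68, 10.85, 10.74 and 10.70 in saline, 10.65, 10.74, 10.57 and 10.76 at 3 days, 10.37, 10.55, 10.70 and 10.48 at 7 days and 10.51, 10.31, 10.31 and 10.28 at 14 days. Its 14-day arrays lay below all saline and 3-day arrays, while those of 7 days overlapped both. Rpl30, Rpl29 (probe ILMN_2730005), Rpl22, Rps26 and Rps3 (probe ILMN_2637639) fell by 0.24, 0.22, 0.19, 0.19 and 0.19 at 14 days, with adjusted p between 0.0177 and 0.0468. At 7 days Rpl30 fell by 0.33 (adjusted p = 0.00885), Rps3 by 0.28, Rpl29 by 0.24 and Rpl22 by 0.20. Scaling arrays to a common median in place of quantile normalization moved the median of all probes by 0.10 at 14 days and 0.22 at 7 days, and 21 members were then higher and 0 lower at 14 days, beside 14% and 1.99% of all probes, and 26 higher and 0 lower at 7 days, beside 24.1% and 1.76%. At 14 days the lower count was 1 to 3 when saline replicate 2, 3 or 4 or 14-day replicate 1, 2 or 3 was left out, with 1 for saline replicate 3, and the calls of Rpl30, Rpl22, Rps26 and Rps3 each depended on several of these arrays. With the replicate number as a block it was 2.

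Several familiar members did not pass in hippocampus. Rps6, the small-subunit protein that S6 kinases phosphorylate, averaged 12.25 ± 0.13 at 14 days and 12.24 ± 0.03 in saline (SD, n = 4 each), a difference of 0.00 ± 0.08 (SE, adjusted p = 0.978). Rps19, another Diamond-Blackfan anaemia gene, had 0.07 ± 0.07 on its bright probe (adjusted p = 0.484), and the dim probe was detected on no saline array. Of the stalk proteins, which recruit translation factors, Rplp0 stood at -0.22 ± 0.10 (adjusted p = 0.112) and Rplp1 at -0.04 ± 0.07 (adjusted p = 0.664). Rpsa, also known as the laminin receptor, was detected on 1 of 4 arrays at 14 days and 1 of 4 in saline, and did not pass (adjusted p = 0.535). Rpl3, at the peptidyl transferase centre, had 0.17 ± 0.07 (adjusted p = 0.0947).

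In muscle a few members rose strongly, and most did not pass. After 14 days 13 of 71 probes were higher and 2 lower, where 11% of all tested probes were called higher and 7.81% lower. After 7 days 11 were higher and 2 lower, against 10.8% and 8.86%. The members' median was -0.02 at 14 days and -0.04 at 7 days, beside -0.08 and -0.08 over all probes, so most members stood near saline. In the brightest 10% of all probes 10.2% were called higher and 4.01% lower at 14 days. Arrays did not overlap between 14 days and saline for 16 of the 71 probes, nor between 7 days and saline for 16, beside 23% of all probes each time. The split moved with the scaling: scaled to a common median, 7 members were higher and 13 lower at 14 days, beside 7.92% and 32.9% of all probes, and 7 higher and 17 lower at 7 days, beside 7.94% and 29.1%, while the median of all probes moved by -0.17 and -0.16. In the authors' series values 21 were higher and 2 lower at 14 days, beside 11.3% and 17.8% of all probes, and 23 higher and 5 lower at 7 days, beside 11.5% and 19.7%. There the members' median, in units of the array SD, was 0.10 at 14 days and 0.11 at 7 days, beside -0.04 and -0.04 over all probes.

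Rpl22l1, the paralog that can take the place of Rpl22 in the ribosome and that Rpl22 represses in mouse cells, had the largest difference with this background correction. Its probe read 5.44, 5.72, 5.46 and 5.31 on the saline arrays, 5.04, 5.39, 5.83 and 5.68 at 3 days, 7.11, 7.40, 7.03 and 7.28 at 7 days and 6.97, 7.56, 7.52 and 6.90 at 14 days. It was detected on 3 of 4 arrays in saline and at 3 days and on all arrays of the longer courses, which lay wholly above the rest. The difference from saline was 1.75 ± 0.18 at 14 days (adjusted p = 1.2e-06), a 3.37-fold signal, and 1.72 at 7 days (adjusted p = 1.62e-06). Its saline signal lies near the detection limit, and without background correction the difference was 0.70 at 14 days and 0.68 at 7 days, still called and below those of Rps3a1 and Rps9, which were at least 1.18 and 1.16 at 14 days under every alternative on the log2 scale. Rpl22 itself averaged 10.92 ± 0.10 at 14 days and 10.98 ± 0.16 in saline (SD, n = 4 each), a difference of -0.06 ± 0.09 (SE, adjusted p = 0.677). In hippocampus Rpl22l1 was detected on 0 of 16 arrays and has no value there.

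Rps3a1 and Rps9 rose next. Rps3a1 had 10.14, 9.77, 10.28 and 10.12 in saline, 10.06, 10.12, 10.05 and 10.12 at 3 days, 11.67, 11.60, 11.42 and 11.31 at 7 days and 11.52, 11.63, 11.49 and 11.27 at 14 days, a rise of 1.40 ± 0.11 at 14 days (adjusted p = 9.26e-08) and 1.42 at 7 days (adjusted p = 9.04e-08). Rps9 lies at the entry channel for messenger RNA, and its probe ILMN_1214918 read 11.66, 11.76, 11.89 and 11.51 in saline, 12.25, 11.86, 11.81 and 11.88 at 3 days, 13.23, 12.97, 13.04 and 12.92 at 7 days and 12.95, 13.18, 13.10 and 13.07 at 14 days. That is a rise of 1.37 ± 0.11 at 14 days (adjusted p = 1e-07) and 1.33 at 7 days (adjusted p = 1.56e-07). Both genes had all 8 arrays of the longer courses above all 8 others, but the second Rps9 probe, ILMN_2643092, stood at -0.11 ± 0.09 at 14 days (adjusted p = 0.386).

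Rps3, next to Rps9 at the same channel, also gave 2 different answers. The probe ILMN_2637639 read 10.63, 10.41, 10.69 and 10.47 in saline, 10.79, 10.52, 10.46 and 10.68 at 3 days, 11.61, 11.49, 11.65 and 11.30 at 7 days and 11.47, 11.99, 11.51 and 11.60 at 14 days, and its longer courses did not overlap the rest. It rose by 1.09 ± 0.12 at 14 days (adjusted p = 3.22e-06) and 0.96 at 7 days (adjusted p = 1.5e-05). The brighter probe ILMN_2594103 stood at 0.04 ± 0.09 at 14 days (adjusted p = 0.792). The platform table gives no isoform for either probe.

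Rpl35a rose evenly, with 12.38, 12.41, 12.53 and 12.50 in saline, 12.48, 12.52, 12.44 and 12.47 at 3 days, 13.36, 13.35, 13.23 and 13.24 at 7 days and 13.32, 13.40, 13.13 and 13.39 at 14 days. All arrays of the longer courses were above all others, by 0.85 ± 0.08 at 14 days (adjusted p = 3.63e-07) and 0.84 at 7 days (adjusted p = 4.94e-07). Rpl5 had 13.43, 13.30, 13.59 and 13.61 in saline, 13.84, 13.55, 13.47 and 13.52 at 3 days, 14.08, 14.09, 13.80 and 14.15 at 7 days and 14.12, 14.04, 14.04 and 14.17 at 14 days. It rose by 0.61 ± 0.10 at 14 days (adjusted p = 0.000331) and 0.55 at 7 days (adjusted p = 0.000957), and at 7 days 1 array lay within the range of the 3-day arrays.

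Of the stalk proteins, the Rplp0 probe ILMN_1249815 was detected on no muscle array of saline or 3 days, on 2 of 4 arrays at 7 days and 3 of 4 at 14 days. It was at least 1.26-fold higher at 7 days (adjusted p = 0.00556) and at least 1.23-fold at 14 days (adjusted p = 0.00712). It met the detection filter only through the arrays of these courses, so the p-values do not support the rise. The counts of higher muscle probes include it. The brighter Rplp0 probe ILMN_2744356, detected on all arrays, stood at 0.05 ± 0.12 at 14 days (adjusted p = 0.788), and Rplp1 at -0.03 ± 0.08 (adjusted p = 0.825). With the authors' series values Rplp1 was called higher at 7 and 14 days (adjusted p = 0.0225 and 0.0436).

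The remaining muscle calls were small. At 14 days Rpl30 stood at 0.40, Rpl10 at 0.35, Rpl39 at 0.33, Rpl36a at 0.33, Rpl37a at 0.29 and Rpl23 (probe ILMN_2742807) at 0.23, all higher than saline. Rpl29 (probe ILMN_2730005) fell by 0.29 (adjusted p = 0.0328) and Rpl34 fell by 0.27 (adjusted p = 0.0208), and at 7 days both fell by 0.32. At 14 days neither passed without 14-day replicate 4 or without saline replicate 4, Rpl29 also not without 14-day replicate 1, saline replicate 1 or saline replicate 2 (adjusted p up to 0.0926), and Rpl34 not without saline replicate 3 (adjusted p up to 0.0708). At 7 days the lower count was 1 without 7-day replicate 3 or saline replicate 2. The Rpl36a call at 14 days was lost with median scaling (adjusted p = 0.454) and without 14-day replicate 1, saline replicate 1 or saline replicate 2. Rps6 stood at -0.13 ± 0.09 (adjusted p = 0.303), the bright Rps19 probe at -0.11 ± 0.07 (adjusted p = 0.305) and Rpl3l, the form of Rpl3 made in striated muscle, at -0.04 ± 0.07 (adjusted p = 0.697). With the authors' series values Rpl3l was called higher at 7 and 14 days (adjusted p = 0.0123 and 0.00664). Rpsa was detected on no saline array and on 3 of 4 at 14 days, a signal at least 1.22-fold higher that did not pass (adjusted p = 0.114).

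**Figure D3:**
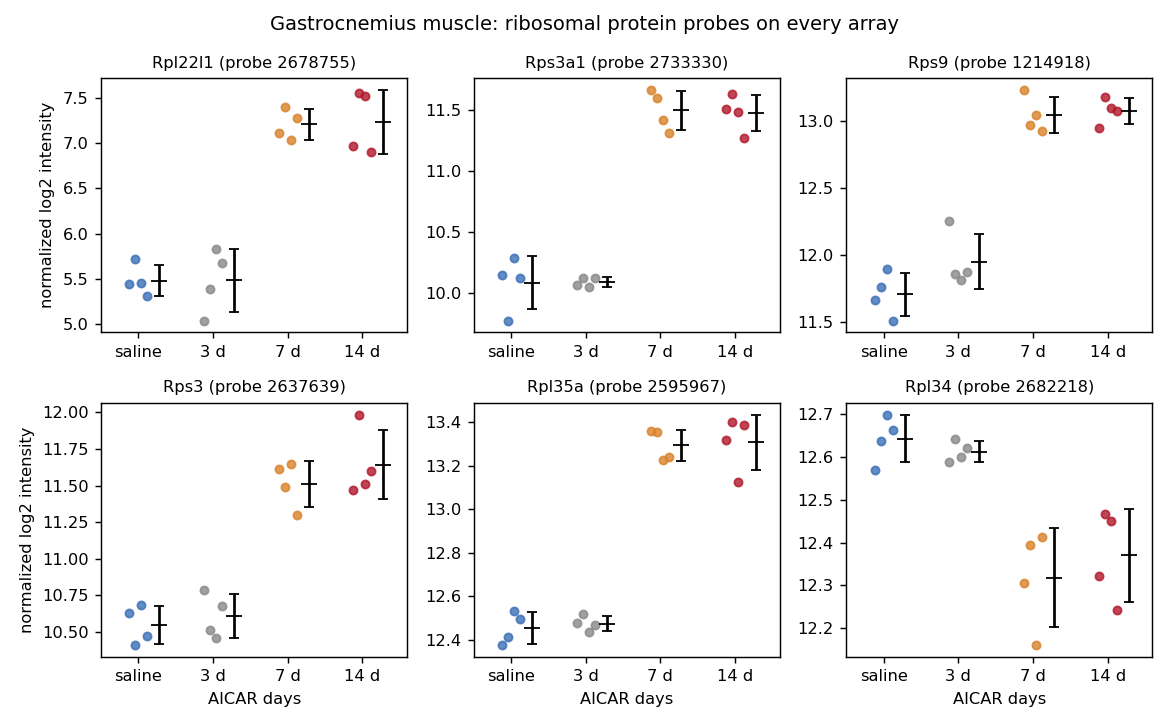
Normalized log2 intensity (vertical) of 6 ribosomal protein probes on every muscle array, by treatment (saline, then 3, 7 and 14 days of AICAR). Points are arrays, and dashes with bars are the mean and SD of 4 arrays. The 8 arrays of 7 and 14 days lie above the 8 others for Rpl22l1, Rps3a1, Rps9, Rps3 and Rpl35a, and below them for Rpl34.

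The courses of AICAR were also compared with each other. Between 14 and 7 days 0 probes were called in either tissue (limma), with 1 member in each at an unadjusted p below 0.05, and 0% of all probes were called. The members' differences between 14 and 7 days ran from -0.24 to 0.54 in muscle and from -0.28 to 0.20 in hippocampus. Against 3 days, 12 of 71 members in muscle were higher and 2 lower at 14 days, where 11% of all probes were called higher and 8.16% lower, and at 7 days 12 were higher and 3 lower, against 10.5% and 7.71%. Without 3-day replicate 1 or 2, 9 members were called in muscle at 14 days in all. In hippocampus 25 of 69 were higher and 3 lower at 14 days, against 13% and 14%, and 22 higher and 3 lower at 7 days, against 13% and 13.2%. With median scaling the hippocampal splits were 26 higher and 0 lower at 14 days, beside 20.4% and 1.26% of all probes, and 35 and 0 at 7 days, beside 34.9% and 1.61%. In the authors' series values they were 20 and 8 at 14 days, beside 16.4% and 9.96%, and 15 and 13 at 7 days, beside 17.2% and 9.17%. The 7- and 14-day arrays enter the comparisons with saline too, so these counts are no separate evidence. Relative to 3 days Rps21 stood at 0.91 at 14 days in hippocampus and Rpl22l1 at 1.75 at 14 days in muscle.

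Whether the change from saline differed between tissues was tested in a joint fit of the 69 probes detected in both, as the muscle difference minus the hippocampal one. At 14 days 4 members were higher in muscle by this measure and 13 lower, where 7.09% of all probes were called higher and 9.4% lower. At 7 days 5 were higher and 11 lower, against 7% and 9.74%. At 3 days 0 were called, as for all probes (0%). Arrays of the 2 tissues were treated as independent samples. Scaling to a common median moved the all-probe median by -0.29 at 14 days and -0.40 at 7 days, and the calls were then 1 higher and 25 lower at 14 days, beside 3% and 29.2% of all probes, and 1 higher and 44 lower at 7 days, beside 2.84% and 46.9%. In the authors' series values they were 8 higher and 7 lower at 14 days, beside 7.67% and 15.8%, and 14 higher and 8 lower at 7 days, beside 8.47% and 19.4%. The members' median tissue difference was -0.11 at 14 and at 7 days with quantile normalization. In the authors' series values its sign turned, to 0.03 and 0.06 in units of the array SD.

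Rps21 and Rpl34 differed most toward hippocampus. In muscle Rps21 had 13.69, 13.66, 13.89 and 13.80 in saline, 13.85, 13.81, 13.80 and 13.89 at 3 days, 13.58, 13.86, 13.65 and 13.89 at 7 days and 13.84, 13.75, 13.76 and 13.62 at 14 days, groups that overlapped throughout. Its 14-day difference was thus -0.02 in muscle and 0.96 in hippocampus, and the difference between tissues was -0.98 ± 0.11 (adjusted p = 1.42e-07). Rpl34, a large-subunit protein, moved in opposite directions. In muscle it had 12.57, 12.64, 12.70 and 12.66 in saline, 12.59, 12.64, 12.60 and 12.62 at 3 days, 12.30, 12.39, 12.16 and 12.41 at 7 days and 12.32, 12.47, 12.45 and 12.24 at 14 days, with the longer courses wholly below. In hippocampus it had 11.09, 10.81, 11.03 and 10.89 in saline, 10.93, 10.97, 11.10 and 10.81 at 3 days, 11.46, 11.53, 11.20 and 11.54 at 7 days and 11.50, 11.68, 11.51 and 11.54 at 14 days, with the longer courses wholly above. The tissue difference for Rpl34 was -0.87 ± 0.12 at 14 days (adjusted p = 2.73e-06) and -0.80 at 7 days (adjusted p = 1.2e-05). Rpl36a (-0.61 ± 0.12) and Rps10 (-0.54 ± 0.12) were also lower in muscle by this measure at 14 days. The dim Rpl7l1 probe was called lower too, but was undetected in hippocampal saline, so the size of its difference is not known. In hippocampus it met the detection filter only through the longer courses, so this call is no support.

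Rps3, Rps9, Rpl30 and Rps3a1 differed toward muscle. The Rps3 probe ILMN_2637639, high in muscle after the longer courses, had 10.71, 10.76, 10.80 and 10.85 in hippocampal saline, 10.86, 10.75, 10.80 and 10.88 at 3 days, 10.42, 10.61, 10.48 and 10.51 at 7 days and 10.64, 10.61, 10.48 and 10.66 at 14 days. Its longer courses were all below the other hippocampal arrays. The tissue difference was 1.28 ± 0.14 at 14 days (adjusted p = 7.34e-08). For the brighter Rps3 probe, ILMN_2594103, it was -0.01 ± 0.12 and did not pass (adjusted p = 0.971). Rpl30, a large-subunit protein that in yeast binds and blocks the splicing of its own message, had 10.43, 10.42, 10.36 and 10.49 in muscle saline, 10.33, 10.27, 10.27 and 10.22 at 3 days, 10.72, 11.02, 10.80 and 10.90 at 7 days and 11.11, 10.73, 10.82 and 10.63 at 14 days. In hippocampus it had 10.29, 10.41, 10.60 and 10.37 in saline, 10.29, 10.38, 10.31 and 10.48 at 3 days, 10.12, 10.14, 9.92 and 10.17 at 7 days and 10.24, 10.25, 10.07 and 10.15 at 14 days. Its longer courses were thus above the other muscle arrays and below the other hippocampal ones, and the tissue difference was 0.64 ± 0.12 at 14 days (adjusted p = 0.000453). Rps3a1 rose in both tissues and more in muscle (0.63 ± 0.17, adjusted p = 0.0127). So did the Rps9 probe ILMN_1214918 (0.74 ± 0.14, adjusted p = 0.000395), but the other Rps9 probe, which rose in hippocampus alone, differed the other way (-0.40 ± 0.12, adjusted p = 0.0191). With median scaling the tissue differences of Rps9, Rpl30 and Rps3a1 at 14 days did not pass (adjusted p = 0.0826, 0.168 and 0.368), and Rps3a1 did not pass with both tissues normalized together.

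**Figure D4:**
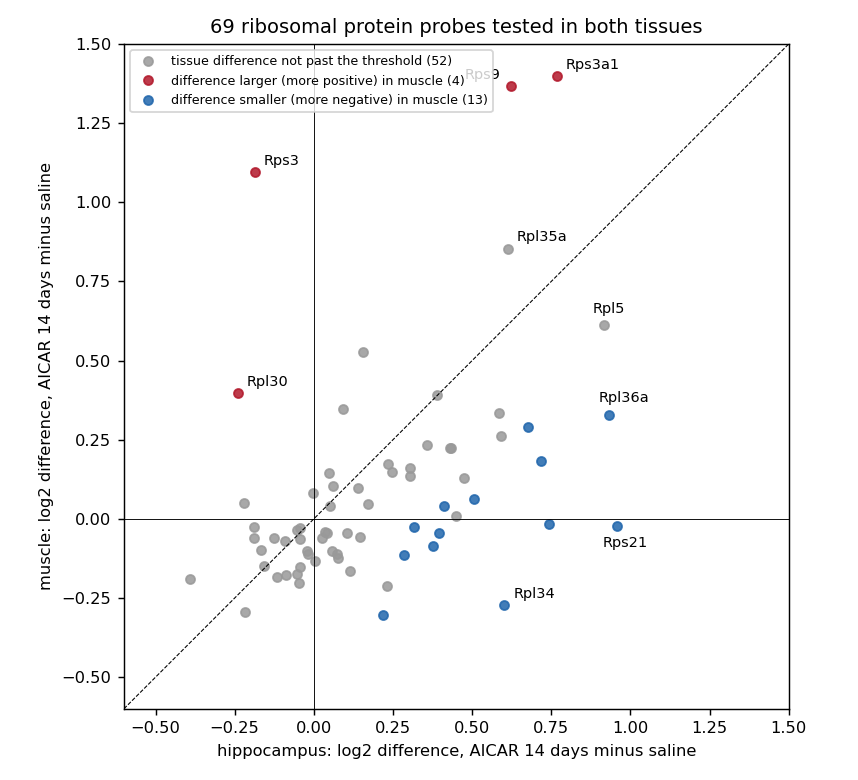
Log2 difference between 14 days of AICAR and saline in muscle (vertical) against the same difference in hippocampus (horizontal) for the 69 ribosomal protein probes tested in both tissues, with a dashed line of equality. Red points (4) lie above the line and blue points (13) below it with an adjusted p below 0.05 for the tissue difference. The labelled Rps3 probe (ILMN_2637639) and Rpl30 rose in muscle and fell in hippocampus, Rpl34 did the reverse, and Rpl5 and Rpl35a rose in both. The other Rps3 probe had no called tissue difference.

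At 14 days 11 of the 69 shared probes were higher in muscle and 26 in hippocampus, and 8 were higher in both: Rps9, Rps3a1, Rpl5, Rpl23, Rpl35a, Rpl36a, Rpl37a and Rpl39. These are 72.7% of the muscle list and 30.8% of the hippocampal list. Over all 11315 probes 1094 were higher in muscle, 1675 in hippocampus and 322 in both, which is 29.4% and 19.2% of the lists. In each tissue the members were called higher more often than all probes, which by itself raises their shared percentages. Whether members were shared beyond that was not tested. The 2 tissues' comparisons do not share arrays, though in both the 7- and 14-day arrays stand apart from the others over all probes. Rpl29 was lower in both, on the same probe, and 3 probes (Rps3, Rpl30 and Rpl34) were called in opposite directions, which is 23.1% of the muscle calls and 9.38% of the hippocampal ones, beside 4.4% and 2.54% over all probes. The hippocampal falls of Rps3 and Rpl30 lost their call in 9 of 14 and 9 of 15 alternatives. The muscle fall of Rpl34 lost its call in 4 of 15. The other Rps3 probe was called in neither tissue.

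In saline mice the tissues differed for most members, as for most probes. Normalized together, 38 of 68 probes were higher in muscle and 17 lower, where 45.4% of all probes were called higher and 39.6% lower, and the members' median difference, muscle minus hippocampus, was 0.34 beside 0.11 over all probes. The higher count includes the dim probes of Rpl7l1 and Rps19, which no hippocampal saline array detected. Both met the detection filter only through their muscle arrays, so their calls are no support. Median scaling moved the all-probe median by 0.28, and 56 members were then higher and 6 lower, beside 51.7% and 32.7% of all probes.

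The clearest tissue pattern was the exchange of Rpl3 paralogs. Rpl3l read 14.44, 14.67, 14.56 and 14.56 in muscle and 5.07, 5.42, 5.37 and 5.31 in hippocampus, where 2 of 4 saline arrays detected it. The fitted difference was 9.27 ± 0.10 (adjusted p = 5.34e-14). Its hippocampal signal lies near the detection limit, and the difference ran from 7.17 to 9.77 over the alternatives on the log2 scale. Rpl3 read 11.63, 11.68, 11.81 and 11.70 in muscle and 14.45, 14.46, 14.35 and 14.27 in hippocampus, a difference of -2.68 ± 0.08 (adjusted p = 1.32e-10). Neither pair of groups overlapped. Rps27l, the p53-inducible paralog of Rps27, read 13.44, 13.59, 13.43 and 13.48 in muscle and 10.721, 10.999, 11.367 and 10.996 in hippocampus, 2.47 ± 0.13 higher in muscle (adjusted p = 8.75e-09), and Rps27 was 0.62 ± 0.09 higher. All 5 paralog probes were higher in muscle, the dim Rpl7l1 probe by at least 1.25-fold. In this comparison the dim probe met the detection filter through its muscle arrays alone. Rpl22l1 was not tested here, and its signal on the muscle arrays, detected on 3 of 4, was at least 1.14-fold higher.

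Rps15a and Rps6 were lower in muscle than in hippocampus. Rps15a read 7.52, 7.50, 7.61 and 7.82 in muscle and 10.75, 10.94, 10.81 and 10.77 in hippocampus, a difference of -3.20 ± 0.09 (adjusted p = 9.4e-11). Rps6 read 11.43, 11.42, 11.30 and 11.44 in muscle and 12.50, 12.42, 12.44 and 12.46 in hippocampus, a difference of -1.06 ± 0.07 (adjusted p = 1.42e-07). The Rps6 call held under every alternative, with differences from -1.07 to -0.30 on the log2 scale. Rpl27a (-1.13) and the Rpl31 probe ILMN_3073486 (-1.07) were lower in muscle as well, while the other Rpl31 probe was 0.27 higher. On the other side Rpl7a (2.29 ± 0.12), Rps3a1 (1.92 ± 0.15), Rpl5 (1.54 ± 0.11), Rps9 (probe ILMN_1214918, 1.41 ± 0.10) and Rpl34 (1.39 ± 0.09) were higher in muscle.

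**Figure D5:**
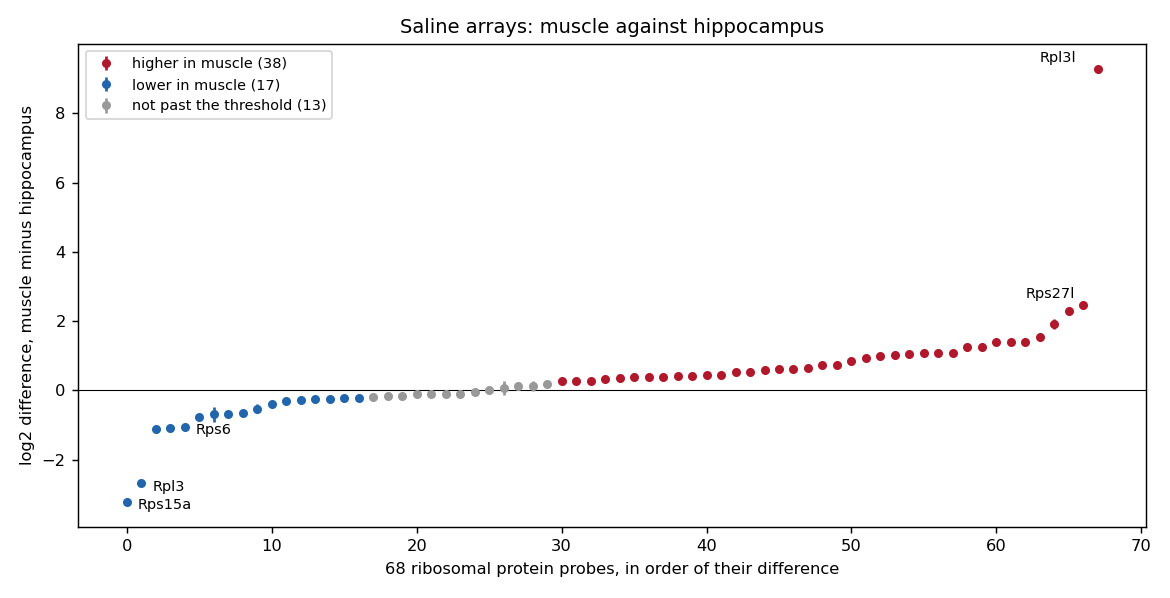
Log2 difference, muscle minus hippocampus, in saline mice (vertical) for 68 ribosomal protein probes in order of that difference (horizontal), with bars for the SE, most of them smaller than the points. The probes higher in muscle (38, red) outnumber those lower (17, blue), and Rpl3l at 9.27 stands far from the rest, with Rps15a and Rpl3 lowest.

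Probes of the same gene often disagreed. In muscle 11 genes had several tested probes, which had the same sign at 14 days for 5 genes and at 7 days for 2. In hippocampus it was 7 of 10 genes at 14 days and 6 of 10 at 7 days. Between the tissues in saline, Rpl23, Rpl29, Rpl31 and Rpl38 each had probes called in opposite directions. Which transcripts or copies such probes read was not tested.

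The pyrimidine run at the annotated start was set beside the calls, with no test. In hippocampus 7 of 13 genes with a run of at least 8 had a probe called higher at 14 days, against 16 of 36 genes with a shorter run or none, and the median of the genes' differences was 0.39 against 0.16. In muscle it was 2 of 13 against 10 of 37, with medians of 0.04 and 0.01. The printed genes include rises of both kinds. Rps10 (0.72 in hippocampus), Rpl35a (0.85 in muscle) and Rps9 (1.37 in muscle, on 1 of 2 probes) have runs of at least 8. Rps21 (0.96 in hippocampus) and Rps3a1 (1.40 in muscle) have runs shorter than 8. Rpl5, Rpl36a and Rpl22l1, whose annotated start is a purine and so counts as no run, were also among the largest rises. In the printed Rpl22l1 line an unbroken stretch of C and T follows directly after the start. Its class thus depends on the exact base that is annotated. Rpl7a, with the longest run printed, stood at 0.39 in both tissues at 14 days (adjusted p = 0.119 in muscle and 0.00574 in hippocampus).

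Other genes of the translation pathway were read from fixed lists, to be set beside the 11% of all probes called higher and 7.81% lower in muscle at 14 days and the 13.7% and 15.9% in hippocampus. Among other TOP messages, which encode translation factors and related proteins, 6 of 22 probes were higher and 1 lower in muscle at 14 days (median -0.10), and 7 of 23 higher and 4 lower in hippocampus (median 0.03). Eef1b2, an exchange factor for elongation factor 1, stood at 1.37 ± 0.10 in muscle (adjusted p = 5e-08) and at 0.91 ± 0.15 in hippocampus (adjusted p = 0.000491) on probe ILMN_2874853, and its second probe was called higher in both tissues as well. The poly(A)-binding protein Pabpc1 stood at 1.09 ± 0.15 in muscle (adjusted p = 3.77e-05) on 1 of its probes. Fau, a ribosomal protein that the naming rule misses, stood at -0.16 ± 0.09 in muscle (adjusted p = 0.248) and -0.12 ± 0.07 in hippocampus (adjusted p = 0.237) at 14 days, and fell by 0.21 in hippocampus at 7 days (adjusted p = 0.0371).

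Counts of the next lists stand beside 11% of all probes called higher and 7.81% lower in muscle at 14 days. In hippocampus these shares were 13.7% and 15.9%. Of ribosome assembly factors, 7 of 36 probes were higher and 2 lower in muscle at 14 days (median -0.05). They were led by Tsr1, which acts in late small-subunit assembly, at 1.15 ± 0.12, by Rpf2, which in yeast brings in the complex of Rpl5 and Rpl11, at 0.84 ± 0.09, and by nucleolin (Ncl) at 0.79 ± 0.10. In hippocampus 4 of 34 were higher and 6 lower (median -0.08). There Nop10, a protein of the particles that pseudouridylate ribosomal RNA, stood at 0.79 ± 0.07, while Heatr1, which acts early in small-subunit assembly, fell by 0.45, and Nob1, the nuclease that trims the small-subunit RNA, fell by 0.39. Of RNA polymerase I subunits and factors, 2 of 15 probes were higher and 2 lower in each tissue (medians -0.11 in muscle and -0.05 in hippocampus). The subunit Znrd1 was called higher on different probes, at 1.26 ± 0.09 on ILMN_2971486 in muscle and 0.46 ± 0.09 on ILMN_2971481 in hippocampus. Of mTORC1 and TOP control genes, 0 of 17 probes were higher and 2 lower in muscle at 14 days (median -0.15), and 1 of 15 higher and 6 lower in hippocampus (median -0.20). The kinase Mtor fell by 0.46 in muscle (adjusted p = 0.0104) and fell by 0.54 in hippocampus (adjusted p = 0.000253). A probe of its partner Mlst8 fell by 0.31 in muscle (adjusted p = 0.0469) and fell by 0.58 in hippocampus (adjusted p = 0.000527).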

How the data were processed

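Total RNA of 32 samples was profiled on single-channel Illumina bead arrays. Per the file headers and values, the deposited intensity of each probe is neither background-corrected nor normalized, and the deposited detection p-value compares it with negative controls. The series values the authors deposited are a standard score: recomputing them showed log2 intensities centred on the mean of their array and divided by its SD. The submitters' processing notes name BeadStudio 1.6.0. Symbols come from the platform table, and all 84 member probes matched RefSeq with 0 symbols changed.

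With limma 3.58.1 in R 4.3.3, intensities were background-corrected from the detection p-values (neqc, offset 16), quantile-normalized within tissue and fitted with 1 mean per group. The joint fit of both tissues has no term for the animal, and saline arrays were normalized together for the comparison of tissues, over probes detected on at least 4 of 8 arrays. P-values are two-sided. Errors beside differences are SEs, and beside means SDs. The number of arrays limits the precision.

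Named probes are up to 6 rises and 6 falls per comparison with saline, up to 5 otherwise, and a panel of roles and paralogs. Members, lists and this rule were chosen with earlier results of these data known. The fit was tested on simulated data. Replicate numbers were not used to pair samples, since the labels give no pairing. Deviations of same-numbered arrays correlated between -0.37 and 0.194, above 0.1 in 6 of 64 pairs. These correlations cannot show whether arrays share an animal.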

Additional observations from a re-analysis of the deposited data

Results flagged for a closer look

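A check covered 80 groups of 4 arrays, from 20 pairs of a probe and a tissue, most of them with their values given above. Of these groups 4 held an array far from the other 3, about as many as chance gives at 1 in 20 groups. In hippocampus at 14 days these were Rps21 in replicate 1 (13.56, others 13.47 to 13.48), Rps3a1 in replicate 4 (8.77, others 9.02 to 9.05) and Rps15a in replicate 1 (10.51, others 10.28 to 10.31). In muscle it was Rps9, probe ILMN_1214918, in 3-day replicate 1 (12.25, others 11.81 to 11.88).

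The change from saline differed between tissues for 10 of the checked probes at 7 days and 9 at 14 days in the joint fit. As muscle minus hippocampus, the difference at 7 and 14 days was 1.24 and 1.28 for Rps3 (probe ILMN_2637639) and 0.77 and 0.74 for Rps9 (probe ILMN_1214918). The second probes of these genes stood at -0.07 and -0.01 for Rps3 and at -0.30 and -0.40 for Rps9. The difference was 0.77 and 0.64 for Rpl30 and 0.67 and 0.63 for Rps3a1. It was -0.93 and -0.98 for Rps21, -0.80 and -0.87 for Rpl34, -0.71 and -0.61 for Rpl36a and -0.50 and -0.54 for Rps10. For the dim Rpl7l1 probe the fit gave -0.60 and -0.76, but no hippocampal saline array detected it, so these are not measured sizes, and the 7-day value lost its call in 8 of 21 alternatives. Rpl35a was flagged at 7 days, with 0.35.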

How the results depend on the processing

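Of 125 called results for named probes, 82 kept their call under every alternative run, 41 lost it under at least 1 and 8 changed sign. With median scaling 0 probes were lower in hippocampus at 7 days and 0 at 14 days, 7 higher and 17 lower in muscle at 7 days, 7 higher and 13 lower at 14 days, 45 and 26 differed between tissues at 7 and 14 days, and 6 were lower in muscle than hippocampus. In the authors' series values 9 were lower in hippocampus at 7 days, and in muscle 23 were higher and 5 lower at 7 days and 21 higher at 14 days. Without background correction 5 and 4 were lower in muscle at 7 and 14 days. With no filter on dim probes 3 were lower in hippocampus at 14 days. With the brightest probe of each gene, which tests fewer probes, 2 were lower in hippocampus at 7 days, 7 higher and 1 lower in muscle at 7 days and 1 lower at 14 days. With the replicate block 2 were lower in hippocampus at 14 days and 1 in muscle at 14 against 3 days, and no other count moved by over 1.5 times with the block. Against 3 days the lower counts also moved in muscle without background correction (7 and 4 at 7 and 14 days), in hippocampus at 14 days without it (5), in muscle in the authors' series values at 7 days (6) and in hippocampus with the brightest probe (1 and 1).

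Leaving out 1 array gave 26 to 27 higher and 1 to 5 lower in hippocampus at 14 days, 24 to 25 and 3 to 4 at 7 days, 10 to 12 higher and 0 to 3 lower in muscle at 14 days, 10 to 13 and 1 to 3 at 7 days, and 0 to 0 at 3 days. Against 3 days it gave 23 to 29 and 21 to 27 in hippocampus at 14 and 7 days and 9 to 13 and 13 to 15 in muscle. It gave 15 to 18 and 13 to 17 tissue differences at 14 and 7 days, and 38 to 39 higher and 13 to 16 lower in muscle than in hippocampus.

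The sign turned with median scaling for Rpl29 (0.070 at 7 days against saline, 0.15 and 0.026 at 7 and 14 days against 3 days), Rpl22 (0.029 at 7 days), Rps3 (0.028) and Rpl30 (0.11) at 7 against 3 days, all in hippocampus, for Rpl35a (-0.054) in the tissue difference at 7 days, and for Rplp1 (0.76) and Rpl22 (0.37) between tissues in saline. In the authors' series values, whose differences are in units of the array SD, it turned in muscle for Rplp1 (0.23 and 0.21) and Rpl3l (0.18 and 0.20) at 7 and 14 days. It also turned in the tissue difference for Rplp1 at 7 days (0.52) and Rpl3l (0.21 and 0.20). All of these were called higher in those values by limma, with adjusted p between 0.00664 and 0.0436. The causes were not tested.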
